A study of Mus musculus with 2 samples.

Results

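Interferon-induced genes are transcribed in response to interferons, the antiviral cytokines, and 41 well known mouse members were followed in the small intestine of mice fed EPA&DHA or a control diet. Every probeset annotated to a listed gene, by its current symbol or an alias, was taken from the array table. A probeset is the set of short probes that reads a transcript. Of the 41 listed genes 40 had a probeset, out of 19324 named genes on the array, and 38 could be measured on a probeset of their own above the filter on low signal. Ifi44 had no probeset, Mx2 was under the filter, and Isg15 was read only together with a pseudogene.

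Male C57BL/6J mice, aged 4 months, were fed semisynthetic diets holding 20% fat by weight during 4 weeks. The control diet was based on flax-seed oil, which is rich in alpha-linolenic acid (ALA), the plant n-3 fatty acid. In the EPA&DHA diet a marine concentrate holding 6% EPA and 51% DHA took the place of 44% of these lipids, so both groups received n-3 fatty acids and a high fat load. From 12 mice per diet, small intestinal RNA of 10 control mice and 11 EPA&DHA mice was pooled by diet, and 1 pool per diet was hybridized to an Affymetrix array. The labels name whole small intestine, while the methods of the study describe scraped epithelium, so the share of cells other than epithelium is not known. With 1 array per diet no replicate error was measured, and no test of a diet difference was possible. Ratios are given as EPA&DHA over control on the log2 scale. The spread of log2 ratios among the 500 probesets nearest in signal, a robust SD called the local SD here, is set beside them as a description of the scatter between these arrays. It holds any difference between the pools, and is not an error of replicates.

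Cells sense viral nucleic acids and secrete interferons, which bind receptors on the same or neighbouring cells. Type I and type III interferons act through JAK family kinases on a complex that holds STAT2 and IRF9 and binds the interferon-stimulated response element (ISRE) in promoters, and interferon gamma acts through the GAS element. The induced proteins degrade or block viral RNA, restrict intracellular microbes and raise antigen presentation. In the gut, type III interferons act mainly on epithelial cells, and resident microbes maintain a basal level of the response.

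The promoter stretches below are shown because they carry the letters of the elements through which this gene group is known to respond. They were chosen after the array values were seen, as examples from the IFIT proteins, the ubiquitin-like modifier ISG15, an oligoadenylate synthetase and the signalling factors. All come from RefSeq promoter windows on GRCm38.p6, are written 5′ to 3′ on the strand of the gene, and have the matching letters in capitals. Ifit1 lies on the plus strand (chr19:34640765-34640833) and shows the ISRE letters at 2 places. Isg15 lies on the minus strand (chr4:156200855-156200916), where 3 matches overlap. Oas3 on the minus strand (chr5:120777705-120777754) and Stat2 on the plus strand (chr10:128270256-128270305) have 1 ISRE match in the stretch. Irf1 on the plus strand (chr11:53769904-53769952) has a match to the GAS letters.
Ifit1: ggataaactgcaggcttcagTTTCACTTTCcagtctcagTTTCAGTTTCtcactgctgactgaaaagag
Isg15: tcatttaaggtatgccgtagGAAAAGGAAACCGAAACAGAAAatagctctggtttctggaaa
Oas3: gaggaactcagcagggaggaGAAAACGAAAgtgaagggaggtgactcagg
Stat2: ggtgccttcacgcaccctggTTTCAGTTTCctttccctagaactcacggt
Irf1: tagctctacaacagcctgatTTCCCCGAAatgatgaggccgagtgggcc

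The ISRE was searched as GAAANNGAAA and, for the opposite strand, TTTCNNTTTC. The GAS element was searched as TTCNNNGAA, which reads the same on the opposite strand. Windows ran from 250 bases before to 50 bases after the transcription start, and 32 members had such a window. The ISRE letters stood in the windows of 17 of these members (53.1%), against 3.44% of all 32851 windows and 3.99% of 27025 genes with a window. GAS letters stood in those of 11 members (34.4%), against 8.3% of all windows and 9.55% of genes. The ISRE letters were thus more frequent in the windows of members than in those of genes at large, and the members were read with and without them. The 16 measured members with ISRE letters had a median log2 ratio of -0.05, from -0.38 to 0.45. The 14 measured members without them had a median of -0.14, from -0.46 to 0.57. Oas2, the measured member furthest from 0, had no window and was in neither group. The ranges overlapped over most of their length.

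On the brightest probeset of each gene, the measured interferon-induced genes apart from 1 were less than 1.5-fold apart between the diets. By this reading none of the 38 measured members was at least 1.5-fold higher on EPA&DHA, where 6.19% of the 11720 measured genes were. The oligoadenylate synthetase gene Oas2, 1 member (2.63%), was at least 1.5-fold lower, where 7.97% of genes were. Second probesets of Irf8 and Gbp2 were also at least 1.5-fold lower. Those of Parp14, Iigp1 and Psmb8 were at least 1.5-fold higher, as given below with the shares over all probesets. The log2 ratio lay between -0.5 and 0.5 in 36 of 38 members (94.7%), against 81.1% of all genes. Members were brighter than genes at large, and at higher signal fewer genes were 1.5-fold apart, as given by class of signal below. Members lay somewhat more often on the lower side, with 26 of 38 (68.4%) under 0 against 56.5% of all genes. Their median log2 ratio was -0.11, and that of all genes was -0.05. With all kept probesets of a gene averaged, 22 of 38 members lay under 0, against 55.4% of genes. The medians of members and of genes were then both -0.04. On the brightest probesets, 28 members (73.7%) and 67.1% of genes were within 1 local SD of 0. A ratio more than 1 local SD below 0 was seen in 10 members (26.3%), where 19.1% of genes had one, and a ratio more than 1 local SD above 0 in 0 members, where 13.8% of genes had one. Both signals of every measured member are drawn in the plot of members by role.

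**Figure D1:**
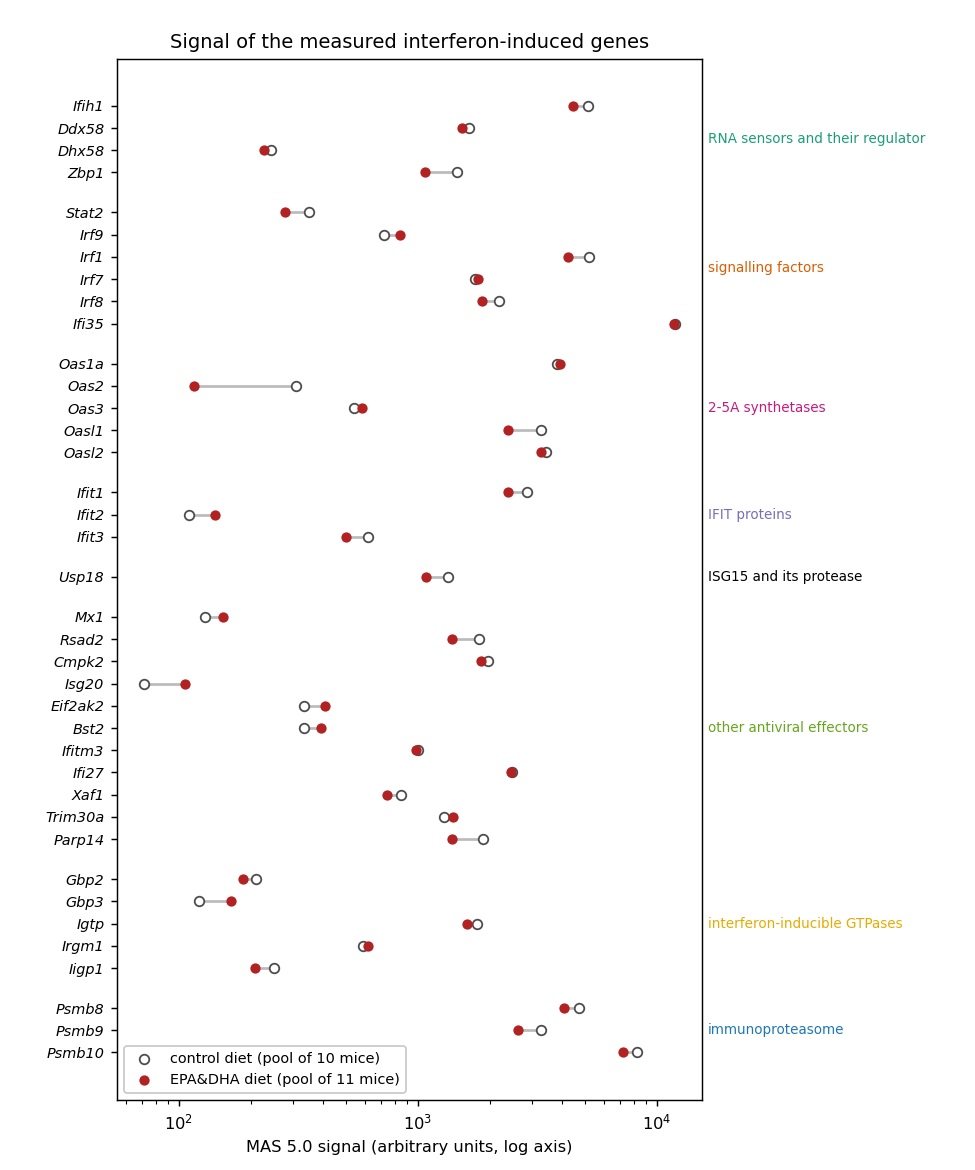
Signal of each measured interferon-induced gene on the control array (open points, pool of 10 mice) and the EPA&DHA array (filled points, pool of 11 mice), on a log axis in arbitrary MAS 5.0 units, with genes grouped by role and each gene shown by its brightest probeset of its own. The points of most genes nearly touch, and Oas2, at 309 and 116, is the widest pair.

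Oas2 encodes an enzyme that makes the short oligoadenylates which switch on RNase L to cut viral RNA. The Oas2 probeset read 309 in the control pool and 116 in the EPA&DHA pool, which is 2.67-fold lower (log2 ratio -1.42, local SD 0.42). A single probeset read Oas2, so no second reading of the gene was at hand. The other oligoadenylate synthetase genes had ratios closer to 1. Oas1a had signals of 3812 and 3917 (log2 ratio 0.04). Oas3, the largest of the synthetases, had 543 and 584 (0.11). Oasl2, a synthetase-like protein, had 3423 and 3283 (-0.06). Oasl1, a synthetase-like protein without enzyme activity that restrains translation of Irf7, was at 3271 on control and 2377 on EPA&DHA (log2 ratio -0.46, local SD 0.25), which was 1.38-fold lower and under the 1.5-fold threshold. Across the 5 genes of the family the median was -0.06, with 3 under 0 and 2 above.

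The RNA and nucleic acid sensors of the group all lay slightly under 0, with a median log2 ratio of -0.15 over 4 genes. Zbp1, a sensor of nucleic acids in the Z form that can start cell death, stood lowest. It was at 1464 on control and 1073 on EPA&DHA (log2 ratio -0.45, local SD 0.26), and a second probeset gave -0.54. Ifih1, which encodes the long double-stranded RNA sensor MDA5, was at 5136 and 4439 (-0.21). Ddx58, which encodes the RNA sensor RIG-I, was at 1628 and 1530 (-0.09), and its 2 dimmer probesets gave -0.24 and 0.50. Dhx58, which encodes the regulator LGP2, was at 244 and 228 (-0.10). A dim probeset of Dhx58 with signals of 67.3 and 95.3 gave 0.50, so for Ddx58 and Dhx58 the sign differed among probesets.

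The signalling factors of the response, 5 transcription factors and Ifi35, lay on both sides of 0, with 4 of 6 genes under 0 and a median of -0.13. Irf1, a factor induced mainly by interferon gamma, was at 5199 on control and 4256 on EPA&DHA (-0.29). Irf7, the main amplifier of type I interferon production, was at 1740 and 1785 (0.04), so the arrays differed by 1.03-fold. Irf9, a DNA-binding partner of STAT2, was at 719 and 838 (0.22), whereas Stat2 was at 350 and 279 (-0.32), with 0.09 on a dimmer probeset. Irf9 and Stat2 lay on opposite sides of 0 on their brightest probesets only, and each was there less than 1 local SD from 0. Ifi35, whose product binds NMI and modulates innate signalling, was at 11926 and 11746 (-0.02), with -0.32 and -0.28 on its other probesets.

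Irf8, a factor of myeloid and lymphoid cells, was read differently by its probesets. The brighter one gave 2175 on control and 1848 on EPA&DHA (-0.24). The other gave 1878 and 939, which is 2.00-fold lower (log2 ratio -1.0, local SD 0.25). Both probesets named Irf8 alone, so the size of the Irf8 difference depended on the probeset while its side did not.

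The IFIT proteins bind foreign RNA and block its translation. Ifit1 was at 2862 on control and 2389 on EPA&DHA (-0.26). Ifit3, which stabilizes IFIT1, was at 616 and 499 (-0.30). Ifit2 was dim, at 111 and 142 (0.36, local SD 0.50), and lay on the other side of 0. The modifier gene Isg15 had no probeset of its own. The probeset it shared with the pseudogene Gm9706 was at 1825 and 1597 (-0.19). Usp18, the protease that removes ISG15 from proteins and dampens interferon receptor signalling, was at 1339 and 1080 (-0.31).

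Other antiviral effectors were spread around 0, with 6 of 11 measured genes below it and a median of -0.02. The lowest was Parp14, an ADP-ribosyl transferase, at 1869 on control and 1386 on EPA&DHA (-0.43, local SD 0.25). A dim probeset of Parp14 at 118 and 188 gave 0.68 instead. Rsad2, which encodes viperin, an enzyme that makes a chain-terminating nucleotide, was at 1807 and 1388 (-0.38), with -0.01 and 0.25 on its dimmer probesets. Cmpk2, the nucleotide kinase gene that lies next to Rsad2, was at 1959 and 1837 (-0.09, and -0.26 on a second probeset). Xaf1, a pro-apoptotic protein, had a log2 ratio of -0.19. Ifitm3, which blocks viral entry at endosomes, had -0.02 with signals of 999 and 985. Ifi27 had -0.02 on a pair of signals of 2472 and 2440. These last genes were close to equal on the arrays.

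On the higher side stood Isg20, an exonuclease of viral RNA, at 71.3 on control and 106 on EPA&DHA. Its ratio of 1.49-fold (log2 ratio 0.57) was just under the threshold, but its signal was the lowest of all measured members and its local SD was 0.59. Eif2ak2, which encodes the kinase PKR that shuts down translation, gave 0.29 on its brightest probeset (333 and 407), and -0.40 and 0.08 on the others. Mx1, a GTPase that blocks influenza viruses and that most inbred laboratory mice, C57BL/6J among them, carry in a defective form, was dim at 129 and 154 (0.25). Bst2, which tethers budding virions, was at 334 and 392 (0.23), and Trim30a, a negative regulator of Toll-like receptor signalling, was at 1282 and 1395 (0.12). Each of these 5 genes was less than 1 local SD from 0. Mx2, a relative of Mx1, fell under the filter at 125 and 19.1, so no ratio is given for it here.

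The interferon-inducible GTPases, which attack the vacuoles of intracellular microbes, had a median log2 ratio of -0.13 with 3 of 5 genes below 0. Gbp3 was the highest, at 122 on control and 166 on EPA&DHA (0.45, local SD 0.45). Gbp2 was at 210.0 and 185 (-0.18), and a second probeset of Gbp2 gave -0.80, from 218 to 125. Igtp, also called Irgm3, was at 1763 and 1612 (-0.13), and the regulatory GTPase Irgm1 was at 588 and 619 (0.07). Iigp1 was at 249 and 208 (-0.26), whereas its dim probeset at 41.0 and 71.2 gave 0.80.

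The immunoproteasome subunits, which replace the standard catalytic subunits of the proteasome and favour peptides for MHC class I, were all slightly lower on EPA&DHA. Psmb8 was at 4720 on control and 4079 on EPA&DHA (-0.21). A second, dim probeset of Psmb8 at 102 and 169 gave 0.73. Psmb9 was at 3282 and 2614 (-0.33) and Psmb10 at 8250 and 7181 (-0.20). The replaced subunits were closer to 0, with -0.14 for Psmb5, 0.07 for Psmb6 and -0.02 for Psmb7. Taken as pairs of an immune and a standard subunit, the log2 ratios differed by -0.07 for Psmb8 and Psmb5, by -0.40 for Psmb9 and Psmb6 and by -0.18 for Psmb10 and Psmb7. All 3 immune subunits stood below their standard partner, by less than 1.5-fold in each pair.

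Several members were read more than once on each array. The 40 genes had 62 probesets, of which 60 passed the filter and 58 named the member alone. Of these 58, 37 lay below 0, 3 were at least 1.5-fold higher (Parp14, Iigp1 and Psmb8, each on its dimmer probeset) and 3 at least 1.5-fold lower (Oas2, Irf8 and Gbp2). Over all 20860 kept probesets that named 1 gene, 7.87% were higher and 8.38% lower by this measure. The median log2 ratio of all kept probesets was itself below 0, at -0.04, and their share below 0 was not counted. More than 1 kept probeset was at hand for 15 members, and in 8 of these the probesets lay on both sides of 0. They were Ddx58, Dhx58, Stat2, Rsad2, Eif2ak2, Parp14, Iigp1 and Psmb8. The plot of all probesets shows these splits beside the local SD.

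**Figure D2:**
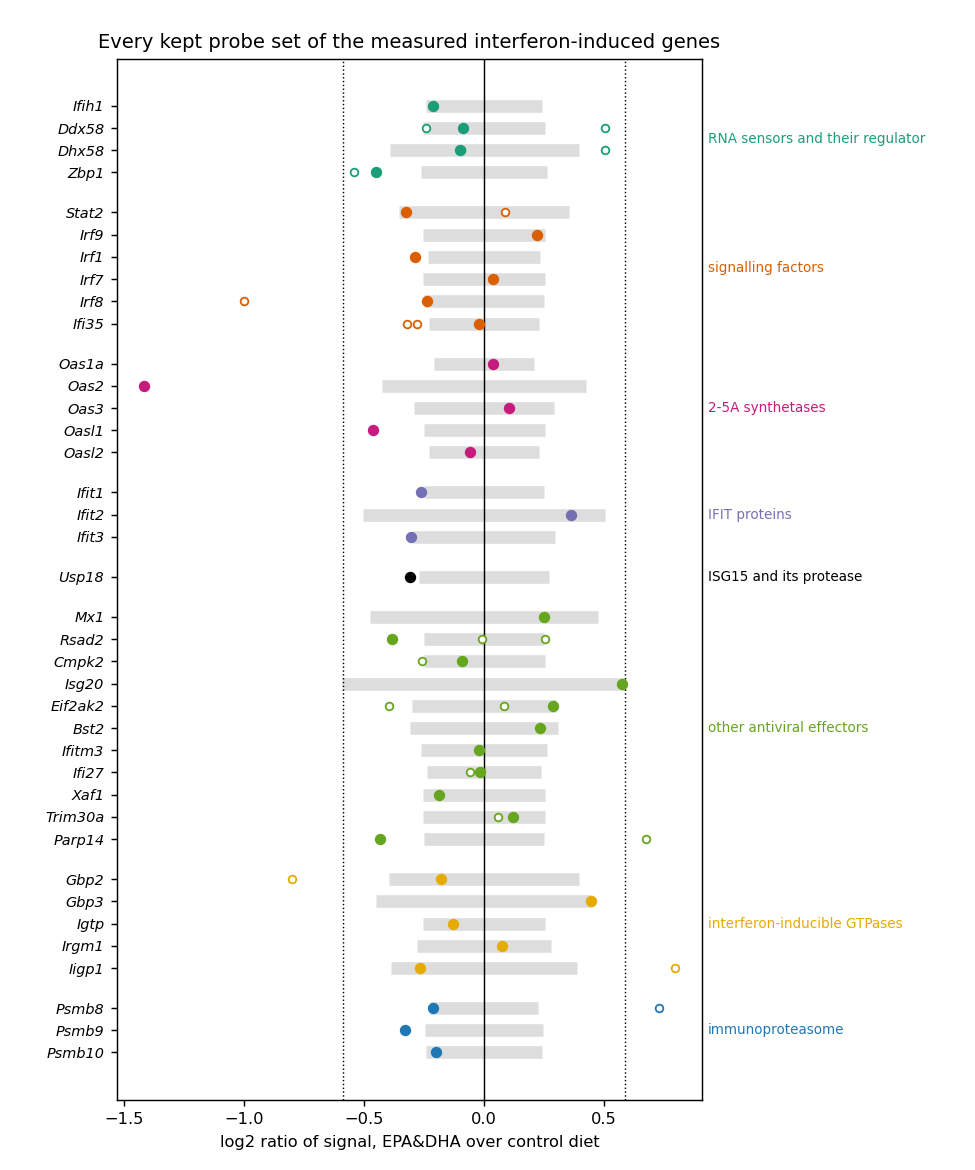
Log2 ratio of EPA&DHA over control for every kept probeset that named 1 of the 38 measured members alone, by role. Filled points are the brightest probeset of a gene, open points its other probesets, grey bars 1 local SD of the filled point on either side of 0, and dotted lines 1.5-fold. Filled points other than Oas2 lie inside the dotted lines, and open points of Parp14, Iigp1 and Psmb8 lie above 1.5-fold while those of Irf8 and Gbp2 lie below it.

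The ratios of members were also sorted by how bright their probesets were, since scatter shrinks as signal grows. The probesets of members had a median mean signal of 1295 (87.0 to 11836), and the median over all genes was 503. All measured genes were split into 4 classes of equal size by signal. In the brightest class 13 of 15 members lay below 0 (58.3% of all its genes did), with a median log2 ratio of -0.20 and a range from -0.46 to 0.04. All genes of that class had a median of -0.05 and a robust SD of 0.23. Among them 2.73% were at least 1.5-fold higher and 1.64% lower, and 0 members were either. In the next class 8 of 12 members lay below 0 with a median of -0.14 (58% of all its genes), and in the one after it 5 of 7 with a median of -0.18 (52.7%). Of all genes in these classes, 3.34% and 6.14% were at least 1.5-fold higher, and 2.53% and 6.69% lower. Oas2 belonged to the dimmer of them. In the dimmest class all 4 members, Ifit2, Mx1, Isg20 and Gbp3, lay above 0, between 0.25 and 0.57, where the robust SD of all genes was 0.58. Of all its genes 12.6% were at least 1.5-fold higher and 21% lower.

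**Figure D3:**
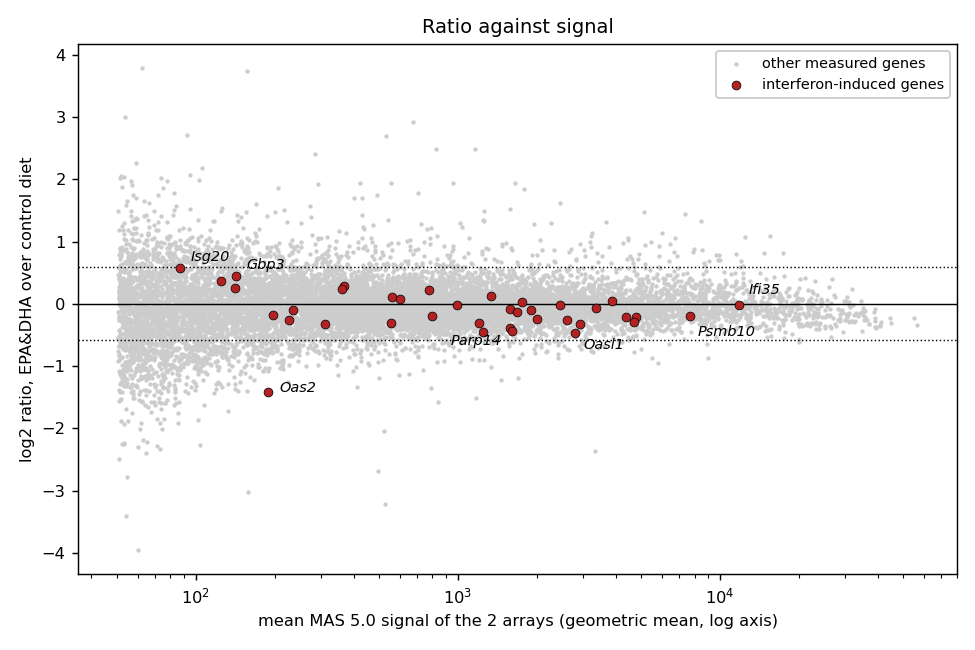
Log2 ratio of EPA&DHA over control against the geometric mean of both signals (log axis, arbitrary MAS 5.0 units) for the measured interferon-induced genes (red) and the other measured genes (grey), with dotted lines at 1.5-fold. Red points at high signal lie mostly just below 0, the 4 at the lowest signals lie above 0, and Oas2 is the single member past the lower line.

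Beyond the members, 102 further genes in 9 lists, the interferon pathway and the 3 standard proteasome subunits given above, were read in the same way, and 75 were measured. At least 1.5-fold higher were 2 of them (6.19% of all genes were) and at least 1.5-fold lower were 8 (7.97% of all genes were), and their median was -0.11. The interferons themselves were barely read. Of the 10 ligand genes listed, 6 had a probeset and Ifnb1 alone was measured, at 46.3 on control and 57.1 on EPA&DHA, near the lowest mean signal kept (50.6). Ifng, at 13.9 and 16.1, was under the filter.

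The interferon receptors had the highest median of the lists of 3 or more measured genes among these, 0.07, and none of the 6 was 1.5-fold apart. Ifnlr1, the specific chain of the type III receptor found on epithelium, was at 849 on control and 898 on EPA&DHA (0.08), and its partner Il10rb at 7719 and 7435 (-0.05). The type I receptor chains Ifnar1 and Ifnar2 had 0.06 and 0.28. Of the interferon gamma receptor chains, Ifngr1 had 0.16 and Ifngr2 -0.33, with signals of 4443 and 3542, and -0.61 on a dimmer probeset. The kinases Jak1, Jak2 and Tyk2 had -0.27, -0.13 and -0.19.

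Among the regulators, Socs3, a feedback inhibitor of JAK signalling by several cytokines, was at 2592 on control and 1506 on EPA&DHA (-0.78, local SD 0.25). Its other probesets gave -0.17 and -0.55. All 3 readings of Socs3 were lower, and Socs1, the main inhibitor for interferon gamma, was under the filter at 57.0 and 22.9. Among the sensors and adaptors, the DNA sensor Cgas was 1.90-fold higher at 114 and 216, with -0.39 on its other probeset, and its adaptor Sting1 was among the 8 lower genes at 119.5 and 46.9, with -0.74 on a dimmer probeset. The EPA&DHA signal of Sting1 lay under the lowest mean signal kept, so no fold is given for it. Both genes were dim, with local SDs of 0.50 and 0.57. On their brightest probesets the remaining sensors and adaptors of that list were less than 1.5-fold apart, and the median over its 11 measured genes was -0.15. Irf5, a factor downstream of Toll-like receptors, had -0.16 there, whereas its second probeset, at 108 and 33.3, gave -1.70 (local SD 0.64).

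In the list of 45 further interferon-induced genes 33 were measured, with a median of -0.14. Below 0 were 23 of the 33, where 56.5% of all genes were. At least 1.5-fold higher was 1 (6.19% of all genes were), and at least 1.5-fold lower were 3 (7.97% of all genes were). Slfn2, a regulator of lymphocyte and myeloid quiescence, was 2.18-fold lower at 965 on control and 442 on EPA&DHA (local SD 0.29), on a single probeset. Dtx3l, a ubiquitin ligase that works with PARP9, was 1.54-fold lower at 2768 and 1794, with -0.52 on its second probeset. Gbp6 was 1.79-fold lower at 313 and 175, but 0.46 on a dimmer probeset. Ifi203 was among the 2 higher genes at signals of 40.6 and 82.5, where the local SD was 0.76, and its control signal also lay under the lowest mean signal kept. These 4 genes were named because they were at least 1.5-fold apart. Slfn2, Dtx3l and Gbp6 lay more than 2 local SDs from 0 on their brightest probesets. Both probesets of Dtx3l were lower, those of Gbp6 split, and Slfn2 had no second one to compare.

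Chemokine and interferon gamma response genes had the lowest median of these lists, -0.65 over 6 genes, and 3 of the 6 were at least 1.5-fold lower (7.97% of all genes were). Cxcl9, a chemokine for activated T cells, was at 300.1 on control and 148 on EPA&DHA (2.03-fold lower, local SD 0.42). Cxcl10, which shares its receptor CXCR3, was at 245 and 146 (1.69-fold lower, local SD 0.42). Cd274, which encodes PD-L1, was at 123 and 59.7 (2.05-fold lower, local SD 0.62). Ido1, a tryptophan-degrading enzyme, was at 2483 and 1699 (-0.55, local SD 0.25), the Cxcr3 ligand Cxcl11 at 313 and 368 (0.23), and the MHC class II activator Ciita at 171 and 171 (-0.00). The list is small, and the Cxcl9, Cxcl10 and Cd274 probesets were dim. Cd274 fell in the dimmest class of signal, where 21% of all genes were at least 1.5-fold lower. Cxcl9 and Cxcl10 fell in the class above it, where 6.69% were. In the genes of peptide loading the median was -0.09, with -0.46 for the transporter gene Tap1. B2m, the light chain of MHC class I, had -0.01 on one probeset and -0.28 on another of nearly the same signal.

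Interferon-induced genes are expressed by leukocytes as well as epithelium, and markers of both were read beside them. In a pool of tissue RNA, fewer cells of a type and less RNA per cell cannot be told apart. The 5 pan-leukocyte markers, among them Ptprc (CD45), all lay below 0 with a median of -0.28, and their summed signal was 4548 on control and 3588 on EPA&DHA. The B cell genes Cd79a, Cd79b and Ms4a1 had -0.71, -0.65 and -0.75. Of the plasma cell genes, Jchain had 0.37, Mzb1 -0.03 and the dim Tnfrsf17 1.23. The B and plasma cell list as a whole had a median of -0.34 over 6 genes (4 below 0), and its summed signals of 12842 and 15886 were mostly those of Jchain, at 11507 and 14860. T cell and intraepithelial lymphocyte markers had a median of -0.10 over 7 genes (5 below 0, summed 9713 and 8344), and macrophage and dendritic cell markers -0.08 over 9 genes (5 below 0, summed 6017 and 6152). Of the markers of plasmacytoid dendritic cells, strong producers of type I interferon, the defining Siglech was under the filter.

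Epithelial markers were mostly near or slightly below 0 too. The 7 enterocyte markers, among them Vil1 and Fabp2, all lay below 0 on their brightest probesets with a median of -0.10 and summed signals of 225694 and 197789. A second probeset of Slc5a1, the sodium-glucose transporter, was at 12383 and 20716 and gave 0.74, against -0.10 on the brightest. The 4 measured Paneth cell markers had -0.16 (3 below 0, summed 72077 and 59048). Defa24, a further listed Paneth marker, was read only on a shared probeset, at 23990 on control and 29287 on EPA&DHA (0.29). The 4 goblet cell markers, Muc2 among them, had -0.33 (all below 0, summed 114690 and 91380). Smooth muscle markers were dim, with summed signals of 1211 and 1040 and a median of -0.31 over 4 genes. Markers of the exocrine pancreas, which are foreign to intestine, were all 4 higher on EPA&DHA with a median of 2.22, and their summed signals were 2113 and 7226. The part of these cell types in the ratios of the interferon-induced genes was not tested. The plot of lists sets them side by side.

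**Figure D4:**
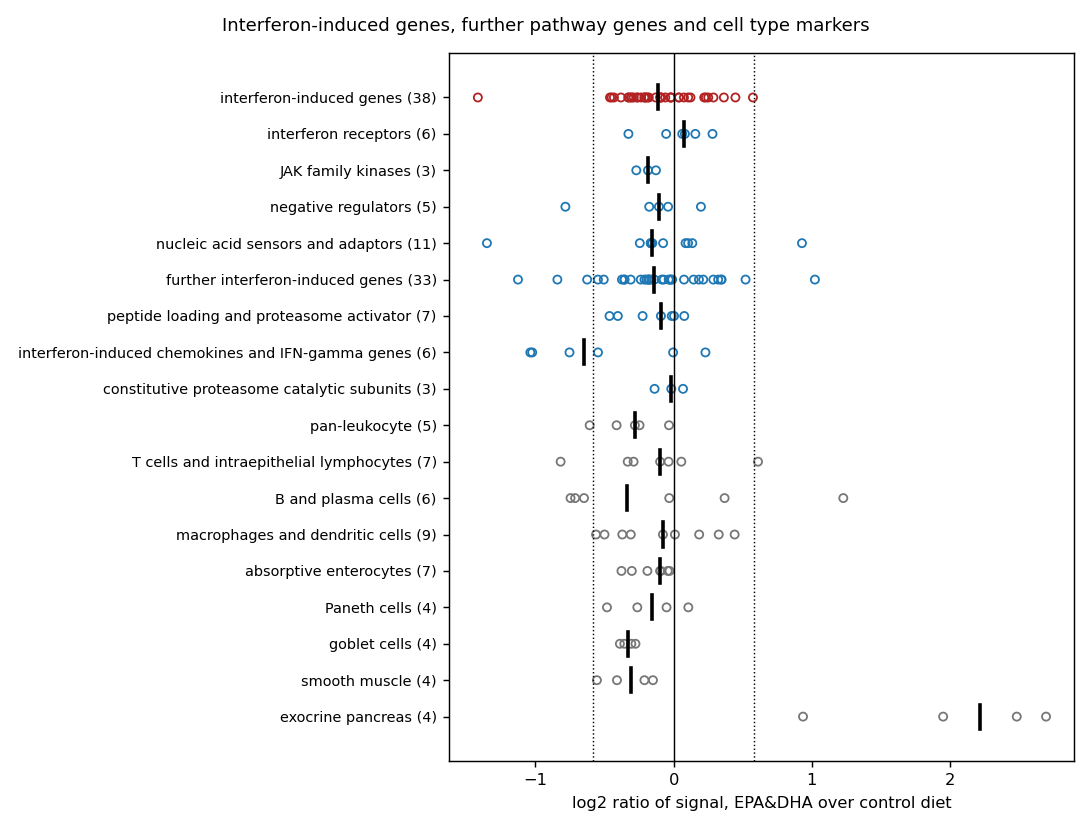
Log2 ratio of EPA&DHA over control for each measured gene (points) of the interferon-induced genes (red), further interferon pathway genes and standard proteasome subunits (blue) and cell type markers (grey), with the number of measured genes in brackets, black bars at the median and dotted lines at 1.5-fold. Lists with under 3 measured genes are not drawn. The bar of the interferon-induced genes (-0.11) lies between those of the pan-leukocyte markers (-0.28) and the interferon receptors (0.07), and the exocrine pancreas stands apart at 2.22.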

How the data were processed

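The authors hybridized pooled small intestinal RNA, 1 pool and 1 array per diet, and summarized probes with MAS 5.0, a release not given in the sources used here. Each deposited value is a MAS 5.0 signal, an intensity in arbitrary units that the authors had scaled per array. Detection calls were not used. Of 45101 probesets, 64 controls were set aside. Of the remaining 45037, 34945 named 1 gene, 932 several and 9160 none, by the annotation of the array platform, and 34741 of the former had an identifier in a current gene table.

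Both arrays were brought to an equal 2% trimmed mean (500.0 on each), and the 54% of probesets brightest in mean log2 signal were retained. A gene took its brightest kept probeset that named it alone. Counts were made at 1.5-fold, with 2-fold as an alternative. Signals of different probesets are not on a common scale of transcript amount. All members were accounted for, those at least 1.5-fold apart with all their probesets, and of the further lists the genes at least 1.5-fold apart, the receptors and 1 gene that is not reported here were to be named; other genes named were chosen after their values were seen. The members and lists were chosen with earlier results of these data known, and the lists came from general knowledge. Promoter windows were matched by symbol for 32 members. Alternatives were no further scaling, median centring, quantile normalization, loess correction (span 0.3), other filters, other choices of probeset and an offset of 50. Scripts were tested on simulated data with planted ratios. The number of arrays limits the precision. The tools were pandas 2.3.3 and numpy 2.4.6 under Python 3.11.15, with statsmodels 0.14.6 for loess and matplotlib 3.10.9 for plots.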

Additional observations from a re-analysis of the deposited data

How the results depend on the processing

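The number of members at least 1.5-fold higher went from 0 to 1 under median centring, quantile normalization and loess correction (Isg20, at 0.61, 0.65 and 0.65). Of all genes, 7.03%, 7.06% and 7.15% were higher under these settings. The same count was reached without probesets whose names carry the suffix a, s or x (Iigp1, at 0.80). There 27 members were measured, and 6.81% of all genes were higher. The number at least 1.5-fold lower went from 1 to 2 with no filter (adding Mx2), with the mean of all kept probesets (adding Irf8) and without suffixed probesets (adding Gbp2). These were 2 of 39, 38 and 27 members, where 19.5%, 7.59% and 8.27% of all genes were lower. The median log2 ratio of members stayed below 0 under each alternative run, from -0.04 with the mean of kept probesets, where that of all genes was -0.04 too, to -0.21 without suffixed probesets, which left 27 members (all genes -0.05). The lower median of members than of genes was thus not seen with averaged probesets. Median centring left 23 of 38 members below 0 (51.5% of genes), and averaged probesets left 22 (55.4% of genes). Oas2 kept its side throughout, with its smallest log2 ratio, -1.11, under an offset of 50. Of 69 recomputed medians of roles, 65 stayed within a fixed tolerance and 4 moved more, and changes of sign were not counted for them. Of 1101 recomputed values of single genes, 1082 stayed within the local SD of the gene and 19 moved more. Among values at least 1.5-fold apart, 0 changed sign. Many of these values could not differ from the main ones. The arrays already had equal trimmed means, and another filter leaves the brightest kept probeset of a gene the same. A gene with 1 kept probeset, such as Oas2, is also untouched by averaging. Adding the shared probeset of Isg15, an alternative chosen after seeing the data, left 0 higher and 1 lower, and could move no other gene. No paired analysis was possible because each diet has 1 array, and for the same reason no replicate could be left out. Probesets under the filter and dim ones, such as those of the interferons, give no reliable ratio.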
